A study of Mus musculus with 2 samples.

Results

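The cells described here came from E9.5 mouse embryos and were chosen by a set of mesenchymal genes that includes Pdgfra, Foxd1 and Stra6. A cell was taken when it had at least 1 UMI (unique molecular identifier, which counts 1 captured mRNA molecule) in at least 3 of the 7 genes Pdgfra, Foxd1, Stra6, Shisa3, Pcdh18, Col26a1 and Grem1, and no UMI of the 9 barred genes Myf5, Tcf15, Meox1, Pax1, Uncx, Dlx1, Dlx2, Sox10 and Epcam, which mark somite, pharyngeal arch, neural crest or epithelial cells. This rule took 645 of 21723 cells. The WT library (Prdm6+/+; Wnt1-Cre2; ZsGreen1) held 392 of them among 11958 cells, and the KO library (Prdm6f/f; Wnt1-Cre2; ZsGreen1) held 253 among 9765. Both libraries were of strain C57BL/6 and came from the cardiac neural crest region, dissected from mid otic level down to somite 4. Wnt1-Cre2 makes Cre recombinase in the Wnt1 lineage, which includes neural crest, so that Prdm6 is deleted in that lineage alone, and ZsGreen1 is a fluorescent reporter of Cre. Controls carried the same transgene and reporter. Each genotype had a single library, which leaves the differences below without a replicate check. No test was made, and genes are described by their values. Intervals (95%) cover counting error only. The chosen cells held 808632 UMIs in WT, with 841 to 3722 per cell, and 607710 in KO, with 1115 to 4411 per cell. Of 26 cell barcodes shared by the libraries, 1 belonged to a chosen cell.

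Embryonic mesenchyme is loose tissue of migratory cells set in matrix. Around the hindbrain and pharynx it comes from paraxial and lateral mesoderm and from neural crest. PDGF receptor alpha, encoded by Pdgfra, receives platelet-derived growth factors and is widely used to mark mesenchyme. Foxd1 encodes a forkhead transcription factor, Stra6 a membrane receptor that takes up retinol, Shisa3 an antagonist of Wnt and FGF receptors, Pcdh18 a protocadherin, Col26a1 a collagen and Grem1 a secreted BMP antagonist.

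Promoter windows of 3 of these genes are shown because co-detection of the genes defined the cells. Each of the 3 has a single listed start, whereas Stra6 has 4. Pcdh18 and Grem1 also have a single listed start, but their windows are not shown. Each window runs from 250 bases before the start to 50 after it, on the plus strand (RefSeq, GRCm38.p6). Pdgfra lies at chr5:75152001-75152300, Foxd1 at chr13:98353995-98354294 and Shisa3 at chr5:67607633-67607932. Capitals mark E-boxes (CANNTG, the same on both strands) and GC boxes (GGGCGG or CCGCCC).
Pdgfra: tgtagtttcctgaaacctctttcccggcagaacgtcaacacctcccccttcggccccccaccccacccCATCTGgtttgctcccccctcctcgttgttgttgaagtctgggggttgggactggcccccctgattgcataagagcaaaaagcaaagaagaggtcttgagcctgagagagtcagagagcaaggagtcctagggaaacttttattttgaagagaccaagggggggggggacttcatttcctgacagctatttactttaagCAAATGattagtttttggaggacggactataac
Foxd1: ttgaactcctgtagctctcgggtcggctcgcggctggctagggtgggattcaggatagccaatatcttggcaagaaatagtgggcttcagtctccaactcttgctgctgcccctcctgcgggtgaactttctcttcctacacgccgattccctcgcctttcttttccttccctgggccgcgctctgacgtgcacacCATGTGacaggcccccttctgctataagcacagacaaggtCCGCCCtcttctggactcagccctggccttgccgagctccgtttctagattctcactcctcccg
Shisa3: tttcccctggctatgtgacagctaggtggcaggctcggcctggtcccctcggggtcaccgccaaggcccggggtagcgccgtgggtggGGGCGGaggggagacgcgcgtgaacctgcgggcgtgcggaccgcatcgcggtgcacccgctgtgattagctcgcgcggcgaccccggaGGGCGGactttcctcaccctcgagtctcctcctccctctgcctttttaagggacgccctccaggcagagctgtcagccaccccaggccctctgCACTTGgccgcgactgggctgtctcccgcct
The Pdgfra window held 2 E-boxes and 0 GC boxes, the Foxd1 window 1 of each, and the Shisa3 window 1 E-box and 2 GC boxes, with 0 overlaps between motifs. The windows of Pcdh18 and Grem1 held 0 E-boxes, with 1 GC box in Pcdh18 and 3 in Grem1. Of 32851 windows of the same length, 72.3% held an E-box and 35.7% a GC box. The forkhead letters TGTTTA or TAAACA, which 13.4% of windows held, were in none of the windows of 6 of the 7 genes, the number with a listed window.

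The values that chose the cells are given first, as a description. Pdgfra was found in 322 of 392 WT cells and 199 of 253 KO cells, at 616 UMIs per 1000000 UMIs (CPM) of these cells in WT (563 to 672) and 505 in KO (450 to 565). Pcdh18 stood at 569 CPM in WT and 553 in KO. Foxd1 had 507 CPM in the WT cells and 406 CPM in the KO cells. Its log2 ratio of KO over WT, −0.32 (−0.55 to −0.09), turned to 0.038 in cells chosen after thinning and to 0.20 in cells with 4 or more of the genes. These 3 genes carried most of the detections, and Pdgfra, Foxd1 and Pcdh18 without another was the commonest combination, with 96 WT and 49 KO cells. Stra6 was detected in 133 of the WT cells (33.9%) and 94 of the KO cells (37.2%), and Foxd1 and Stra6 occurred together in 70 and 48. Stra6 was at 197 and 194 CPM and Col26a1 at 195 and 165 CPM in WT and KO. Shisa3 was at 105 and 80.6 CPM, and Grem1 at 63.1 and 82.3 CPM. The rule was met in 62 different combinations of genes, and no cell had all 7.

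The membership is a threshold in sparse data. Cells with exactly 3 of the genes and no barred gene numbered 305 in WT and 216 in KO, while 883 WT and 616 KO cells just outside had 2. Pdgfra was at 613 and 497 CPM in cells just inside and at 390 and 345 CPM in cells just outside, in WT and KO. Of the cells with at least 3 of the genes, the barred genes took out 280 of 672 in WT (41.7%) and 175 of 428 in KO (40.9%). Most of these had a UMI of the 5 somite genes, 253 in WT and 142 in KO, and Meox1, a somite transcription factor, took out the most (128 and 83).

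A gene of the rule can be measured without circularity in cells chosen by the other 6 genes. Pdgfra had a UMI in 53.3% of the 150 WT cells and 37.2% of the 86 KO cells so chosen. In cells with at least 10% globin UMIs, which should lack the gene, the shares were 5.66% and 4.79%. Median depth was 2085 UMIs in those WT cells and 2315 in those KO cells, and 2028 and 2459.5 in the globin-rich cells. Foxd1 had a UMI in 34.2% and 22.5% of cells chosen by the other 6, against 3.92% and 4.26% of globin-rich cells. For Shisa3 these shares were 7.51% and 4.02%, against 1.53% and 0.532%. For Grem1 they were 4.93% and 4.00%, against 0.871% and 0.532%. Shisa3 and Grem1 rested on 9 KO cells each, against 1 globin-rich KO cell each. At 1000 UMIs per cell the KO share of Shisa3 was 0.893%, under the 1.296% of KO cells not so chosen. The WT shares at that depth were 3.519% and 1.823%. Pdgfra and Foxd1 were thus well above the globin-rich level in both libraries, whereas the KO values of Shisa3 and Grem1 came from few cells. Cells chosen by somite genes set a higher bar. Pdgfra was in 31.02% (WT) and 31.86% (KO) of them, below the shares above. Foxd1 was in 39.89% and 35.29% of them, above its shares in cells chosen by the other 6. Stra6 was in 15.91% and 10.17% of cells chosen by the other 6, against 34.63% and 28.92% of somite cells.

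**Figure D1:**
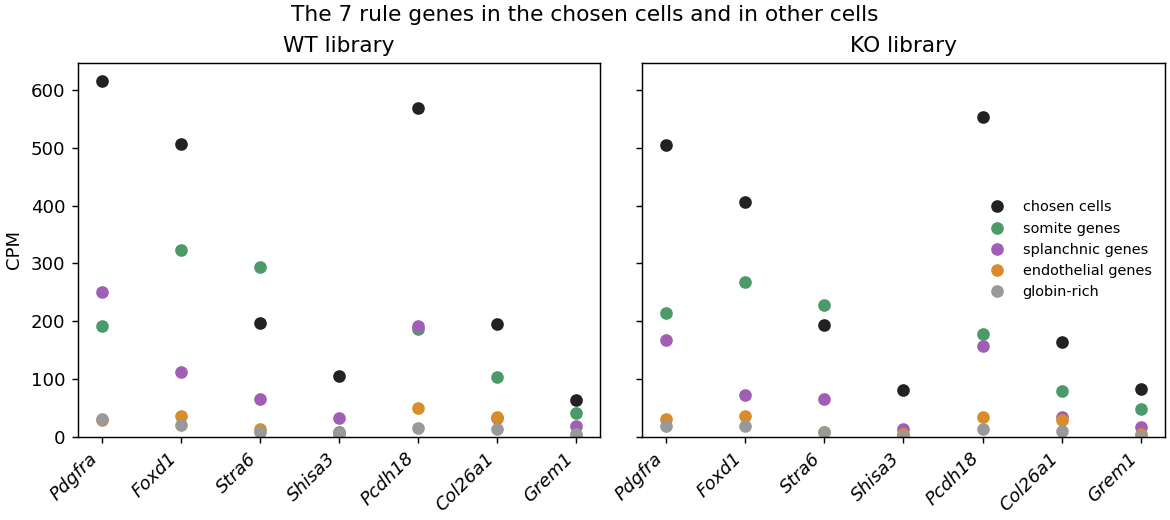
CPM of the 7 rule genes (vertical axis) in the chosen cells, in cells chosen by somite, splanchnic mesoderm or endothelial genes and in globin-rich cells, with WT at left and KO at right. The chosen cells, which were selected by these same genes, had the highest value of each except Stra6. Somite cells stood at 293 CPM of Stra6 in WT and 228 in KO.

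Several of the genes were not particular to these cells. Cells that carried somite genes had Foxd1 at 323 CPM in WT and 268 in KO, and Stra6 at 293 and 228 CPM, above its level in the chosen cells. Shisa3 was at 7.82 and 2.15 CPM in the somite cells, far under the 105 and 80.6 CPM of the chosen cells, whose choice used it. In cells chosen by the other 6 genes, Foxd1 was at 245 and 189 CPM, under the somite cells. Col26a1 was at 88.2 and 53.6 CPM so measured, against 103 and 79.4 in somite cells. Grem1 was at 26.5 and 20.2 CPM, against 41.7 and 47.2. Pdgfra, Pcdh18 and Shisa3 stayed above the somite cells by this measure in both libraries.

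Among 5297 genes outside the rule with at least 50 UMIs in the chosen cells, 24 (0.453%) were at least 2-fold higher in them than in all other cells in both libraries, with 10 CPM added to each side, and 17 (0.321%) were at least 2-fold lower. The minimum leaves out genes that were low in the chosen cells. These counts describe what the choice of cells brought with it and are no test. Gm26523, a gene known by number only, had the largest smaller fold, at 55.7 CPM in WT and 51.0 CPM in KO against 15.2 and 10.7 in other cells. Genes of fibrillar collagens were among the 25 leading genes. Col1a2 had 355 CPM in WT (315 to 398) and 291 CPM in KO (250 to 338), against 132 and 99.0 CPM in other cells. Col3a1 was at 458 and 451 CPM, against 185 and 139. Col1a1 was at 312 and 311 CPM, against 135 and 72.1. The collagens were therefore between 2 and 5 times as high in the chosen cells, in each library.

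Transcription factor genes were among them too. Prrx1, a homeobox gene of limb and craniofacial mesenchyme, was at 188 and 194 CPM in WT and KO, against 70.6 and 74.6 in other cells. Twist1, which acts in the epithelial to mesenchymal transition, was at 424 and 410 CPM, against 196 and 195. Somite cells had Twist1 at 427 and 339 CPM, so it did not set the chosen cells apart from them. Ebf1 was at 161 and 188 CPM, against 66.0 and 76.2, and Snai2 was at 120 CPM in both libraries, against 52.0 and 44.8. Of the 54 transcription factors listed for mesenchyme and head mesoderm, with no minimum on UMIs, 46 were higher in the chosen cells than in other cells in both libraries, and 2, Lhx9 and Id4, were lower in both. Among all 18109 genes outside the rule counted in the same way, 23.5% were higher in both libraries and 40.4% lower in both. The median log2 ratio over the list was 0.52 in WT and 0.63 in KO, against −0.02 in each library over all these genes.

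The leading genes also held receptors and other surface or secreted proteins. Pdgfrb, the other PDGF receptor, was at 75.4 and 112 CPM, against 28.3 and 27.3. Cdh11, a cadherin of mesenchyme, was at 282 and 362 CPM, against 130 and 149. The endothelin receptor gene Ednra was at 63.1 and 70.8 CPM, against 26.3 and 25.7. Fst, which encodes the activin antagonist follistatin, was at 162 and 146 CPM, against 63.7 and 64.4, but it was higher in somite cells, at 219 and 204 CPM. Cxcl13, a chemokine gene, was at 59.4 and 54.3 CPM against 15.0 and 15.8. It was higher in splanchnic cells, at 103 and 171 CPM, and its UMIs in the chosen cells came from 21 WT and 16 KO cells, with up to 11 in a single cell. Of all 54 matrix genes listed outside the rule, 42 were higher in the chosen cells in both libraries and 4 were lower. Among all genes, 23.5% were higher and 40.4% lower in both. The matrix genes summed to 7693 and 8270 CPM in the chosen cells, against 5443 and 5009 in other cells. Somite cells lay between, at 6660 and 6583 CPM.

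**Figure D2:**
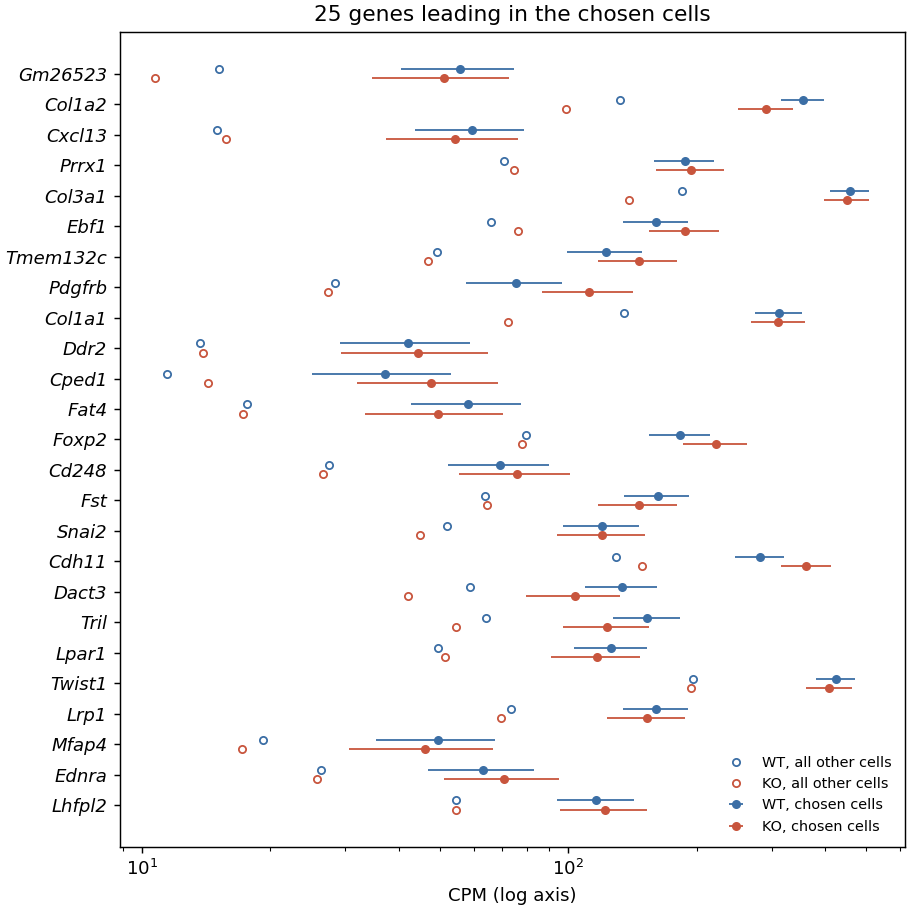
CPM (log axis) of the 25 genes outside the rule with the largest fold in the chosen cells over all other cells, taking the smaller fold of the 2 libraries. Filled points are the chosen cells with 95% Poisson intervals, open points are all other cells, and every filled point lies to the right of the open point of its library.

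Several of these levels rose with the number of rule genes found, also in cells that the rule left out for having too few. In WT cells without barred genes, Col1a2 was at 74.4 CPM where 0 of the 7 genes were found, 178 where 1 was, 288 where 2 were and 377 where 3 were, but at 283 where 4 or more were. Twist1 was at 135, 210, 323, 410 and 469 CPM over the same steps. Col1a1 departed from this in WT, where it was highest just outside the rule, at 436 CPM with 2 genes. It was at 324 CPM with 3 genes in WT, whereas in KO it was at 196 with 2 and 289 with 3. Median depth was also larger at each step from 0 to 3 genes. It went from 1360.5 to 1929 UMIs among the WT cells and from 1446 to 2333 among the KO cells. Myl7, a light chain of atrial heart muscle, ran the other way, from 1183 CPM at 0 genes to 298 at 3 in WT and from 1170 to 293 in KO. Sox2, a gene of neural progenitors, was at 157 CPM at 0 genes and 70.0 at 3 in WT.

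**Figure D3:**
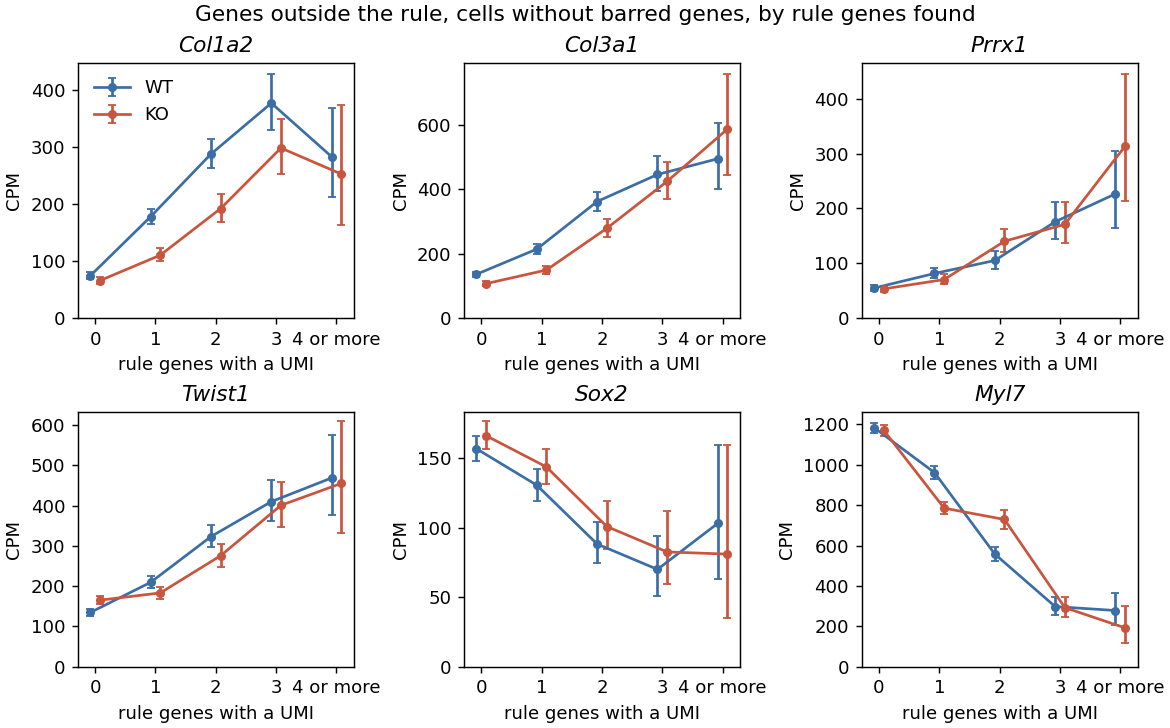
CPM of 6 genes outside the rule (vertical axes, from 0) by the number of rule genes with a UMI, in cells without barred genes, with 95% Poisson intervals for WT and KO. Col3a1, Prrx1 and Twist1 were higher at 3 rule genes than at 0 in both libraries, and Myl7 and Sox2 lower.

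Genes of other cell types were lowest in the chosen cells. Ankrd1, a cardiac gene, had 45.8 CPM in WT and 41.1 CPM in KO, against 212 and 210 in other cells, and Ttn was at 108 and 107 CPM, against 358 and 373. All 13 cardiac muscle markers listed were lower than in other cells in both libraries, as were 40.4% of all genes. Endothelial markers summed to 174 and 132 CPM, against 387 and 351, and epithelial markers to 164 and 143 CPM, against 362 and 304. Erythroid markers summed to 4318 and 3558 CPM, against 14600 and 7474. The embryonic globin gene Hbb-bh1 had 571 CPM in the chosen WT cells and 708 CPM in the chosen KO cells, against 2784 and 1651. A single KO cell held 118 of its 430 KO UMIs, and 64.5% of WT and 53.4% of KO chosen cells had a UMI of it. Without that cell its log2 ratio turned from 0.31 to −0.15 (−0.36 to 0.06). The share of chosen cells with at least 2 erythroid UMIs was 99.2% (WT) and 92.5% (KO), and that of other cells 99.2% and 92.3%. At 1000 UMIs per cell the shares were 87.6% and 57.3% of the chosen cells, against 91.4% and 68.9%. At least 2 UMIs of the neural tube markers were in 28.1% and 37.2% of the chosen cells, against 33.6% and 38.2% of other cells, which were shallower. At 1000 UMIs per cell the shares were 9.30% and 10.3%, against 19.03% and 19.27%. At equal depth both kinds of UMI were thus in a smaller share of the chosen cells than of other cells. Their part in the results was not tested.

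The label of these cells as head mesenchyme was checked against Hox genes, whose paralogue groups mark position along the body axis. Group 1 summed to 85.3 CPM in WT and 69.1 in KO in the chosen cells, against 52.0 and 45.1 in other cells. Group 2 summed to 119 and 69.1 CPM, against 96.2 and 87.5, so it was under other cells in KO. Group 3 summed to 167 and 156 CPM, against 136 and 126. Group 4 summed to 130 and 98.7 CPM, against 94.98 and 77.69, and group 5 to 159.5 and 77.3 CPM, against 87.6 and 56.9 for group 5 in other cells. Groups 6, 7 and 10 had 3 UMIs or fewer per library. Group 8 summed to 23.5 and 9.87 CPM, against 50.97 and 24.2, and group 9 had 6 UMIs in WT and 0 in KO. Groups 1 to 5 were thus above other cells in both libraries, except group 2 in KO, and group 8 was below them. Groups 6, 7, 9 and 10 had too few UMIs for a direction. These values do not single out a head origin, and the cells are named here by their leading genes only.

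Genes of lateral, splanchnic and somitic mesoderm lay on both sides of their level in other cells. Osr1 had 79.2 CPM in WT and 65.8 CPM in KO, against 34.7 and 30.2. Foxf1 was at 53.2 and 72.4 CPM, above other cells by 0.71 and 1.61 on the log2 scale. Aldh1a2, which encodes an enzyme of retinoic acid synthesis, was at 90.3 and 97.1 CPM, against 46.0 and 38.0, and is among the somite markers. Gata4 had 56.9 and 42.8 CPM, against 76.3 and 46.2, and the progenitor gene Isl1 had 23.5 and 31.3 CPM, against 33.3 and 36.3. Pax3 was lower too, at 34.6 and 36.2 CPM against 62.2 and 56.9. Of all 15 listed pharyngeal and splanchnic mesoderm markers, 13 were higher in the chosen cells in both libraries and 2, Isl1 and Gata4, were lower. Among all genes, 23.5% were higher and 40.4% lower in both. These markers summed to 772 CPM in the chosen WT cells and 694 in the chosen KO cells. In splanchnic cells, which were chosen by some of the same markers, they summed to 2392 and 1985 CPM. Of 9 somite markers outside the rule 4 were higher and 4 lower, the latter being Pax3, Pax7, Meox2 and Myf6. The 44.4% that were lower was near the 40.4% of all genes, and the 44.4% that were higher compares with 23.5%.

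The chosen cells varied among themselves. WT cells with a Shisa3 UMI (72 cells) had 1287 CPM of the pharyngeal and splanchnic mesoderm markers, and those without (320) had 650. In KO the values were 1297 CPM (38 cells) and 575 (215). Cells with a Foxd1 UMI went the other way, with 629 CPM against 1039 without it in WT, and the KO cells with Foxd1 were likewise under those without it, which had 1023 CPM. Somite markers outside the rule summed to 356 CPM in WT cells with Foxd1 and 182 in those without, and to 422 and 236 CPM in KO. Foxd1 and Shisa3 occurred together in 25 WT and 7 KO cells. A cell that lacked a given gene had to have 3 of the other 6, so such subsets are not independent of the rule.

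The chosen cells were also compared with other sets of mesoderm cells, namely 361 WT and 204 KO cells chosen by somite genes and 165 WT and 124 KO cells chosen by splanchnic and pharyngeal mesoderm genes. No cell was in more than 1 of these 3 sets. Of 7218 genes compared with somite cells, 24 were at least 2-fold higher and 16 at least 2-fold lower in the chosen cells in both libraries. Gata6, a GATA factor of mesoderm, was at 231 CPM in the chosen WT cells and 52.1 in WT somite cells, and Osr1 at 79.2 and 14.3 CPM. Pax3, a gene of the dermomyotome, was at 34.6 CPM in the chosen WT cells and 266 in WT somite cells, and Dmrt2 at 7.42 and 69.1 CPM. Against splanchnic cells, 27 of 6478 genes were at least 2-fold higher and 16 at least 2-fold lower. Twist1 was at 424 CPM in the chosen WT cells and 121 in splanchnic cells, and Col1a1 at 312 and 94.5 CPM. Barx1, a homeobox gene, was at 14.8 and 97.4 CPM, and Gata5 at 74.2 and 227 CPM. Cells with at least 2 of the arch genes Dlx1, Dlx2 and Dlx5 numbered only 16 in WT and 37 in KO. They held 43986 and 100073 UMIs, and no count of genes against so few is read here. Twist1 was higher in the Dlx cells, at 1137 CPM in WT and 740 CPM in KO, as was Prrx1, at 227 and 399.7 CPM. These differences have no replicate check beyond the direction being the same in both libraries.

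The study compared genotypes, and the share of each library that the cells made up was 3.28% in WT (2.97% to 3.61%) and 2.59% in KO (2.29% to 2.93%). On the log2 scale KO over WT came to −0.34 (−0.57 to −0.11). Because KO cells were deeper, cells were also thinned by random draws of 1000 UMIs each, and 1361 shallower cells of WT and 125 of KO were set aside. The thinned shares were 1.13% and 0.830%, a log2 ratio of −0.45 (−0.88 to −0.03). That single draw was not typical. Over 50 further draws, added after the data were seen, the log2 ratio had a median of −0.87 and ran from −1.48 to −0.45. The share was lower in KO in each draw and under each other setting of the rule tried, with 4 or more of the genes at −0.94 and without Foxd1 at −0.31 (−0.64 to 0.02), where the interval included 0. The KO share of somite cells was also lower, with a log2 ratio of −0.53 (−0.79 to −0.28), and that of splanchnic cells was −0.12 (−0.47 to 0.23). Differences in dissection, in embryos and in genotype cannot be told apart with these libraries.

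Within the cells, Prdm6 itself had 5 UMIs in WT and 2 in KO, too few to compare. Wnt1 had 3 and 0. Whether a given cell came from the Wnt1 lineage was not tested. Bmp4 had 77.9 CPM in WT (59.9 to 99.7) and 69.1 CPM in KO (49.8 to 93.4). Xist, the RNA of the inactive X chromosome, was at 218 and 466 CPM, and its log2 ratio of 1.10 was close to the 1.07 of other cells, and the sex of the embryos cannot be told apart from genotype here.

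Of 5304 genes with at least 50 UMIs in the chosen cells, 18 were at least 2-fold higher in KO (0.339%) and 30 at least 2-fold lower (0.566%). The counting interval lay above 0 for 354 (6.67%) and below 0 for 330 (6.22%). The median log2 ratio of these genes, KO over WT, was 0.00, and the 5th and 95th percentiles were −0.59 and 0.54.

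Histone genes had the largest ratios above 0. Hist1h1b stood at 50.7 CPM in WT against 156 in KO, with a log2 ratio of 1.62 (1.08 to 2.19). Hist1h2ae had 56.9 and 153 CPM, with a log2 ratio of 1.43 (0.90 to 1.97). Other cells had ratios of 1.83 and 1.71 for these genes, at least as large as those of the chosen cells.

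Heyl, a target of Notch signalling, stood at 28.4 CPM in WT and at 72.4 CPM in KO (52.6 to 97.2). Its log2 ratio was 1.35 (0.59 to 2.14), whereas other cells had −0.34 (−0.59 to −0.09). The 44 KO UMIs came from 21 cells and the 23 WT UMIs from 17. Timp3, an inhibitor of matrix proteases, was at 43.3 and 107 CPM, a log2 ratio of 1.31 (0.69 to 1.94) against 0.26 in other cells. In cells chosen after thinning the Timp3 value was 2.85. Tagln, a marker of smooth muscle, was chosen after its value was seen. It was at 68.0 and 140 CPM, a log2 ratio of 1.04 (0.53 to 1.56), with UMIs in 39 cells of each library. Without cells holding 2 or more endothelial, neural, neuron or epithelial UMIs, the Tagln ratio was 0.12 (−0.70 to 0.93), so that value rested on those cells. Acta2, another smooth muscle gene that was likewise chosen afterwards, was at 197 and 179 CPM, a log2 ratio of −0.13 (−0.50 to 0.23). Of the 21 KO cells with Heyl, 10 had Tagln, against 29 of the 232 without it. In WT 1 of 17 had it, against 38 of 375. Acta2 was found in 7 of the 21 KO cells with Heyl and 58 of the 232 without.

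Ptk7, a receptor of planar cell polarity and Wnt signalling, had the most UMIs among the 12 genes with the lowest ratio. It had 302 UMIs in WT and 84 in KO, at 373 CPM (332 to 418) and 138 (110 to 171). Its log2 ratio was −1.43 (−1.80 to −1.08), and −1.21 in other cells, −1.66 in somite cells and −1.06 in splanchnic cells. Postn, a matrix gene, was at 82.9 and 32.9 CPM, a log2 ratio of −1.33 (−2.13 to −0.59) against −1.50 in other cells, with 20 KO UMIs in 9 cells. Both genes were thus lower in KO outside the chosen cells also. After thinning, the Postn ratio was −2.26, and it was −0.86 without the deepest 5% of each library.

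Other genes departed from the rest of the libraries. Ppil3, of the cyclophilin family, had 45 UMIs in WT and 8 in KO, a log2 ratio of −2.08 (−3.38 to −0.98), against −0.04 in other cells. Sfrp2, a secreted Wnt antagonist, stood at 278 CPM in WT (243 to 317) and at 130 CPM in KO (103 to 162). Its log2 ratio was −1.10 (−1.49 to −0.72), against −0.14 (−0.20 to −0.08) in other cells, and it lay just outside the 12 lowest ratios and was named after its value was seen. Nkx6-1, a homeobox gene of neural progenitors, had 40 UMIs in WT and 14 in KO, a log2 ratio of −1.10 (−2.10 to −0.19) against 0.25 in other cells. The ratio of St6galnac3, −1.45 (−2.56 to −0.46), turned to 0.68 in cells chosen after thinning, where few UMIs remained.

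**Figure D4:**
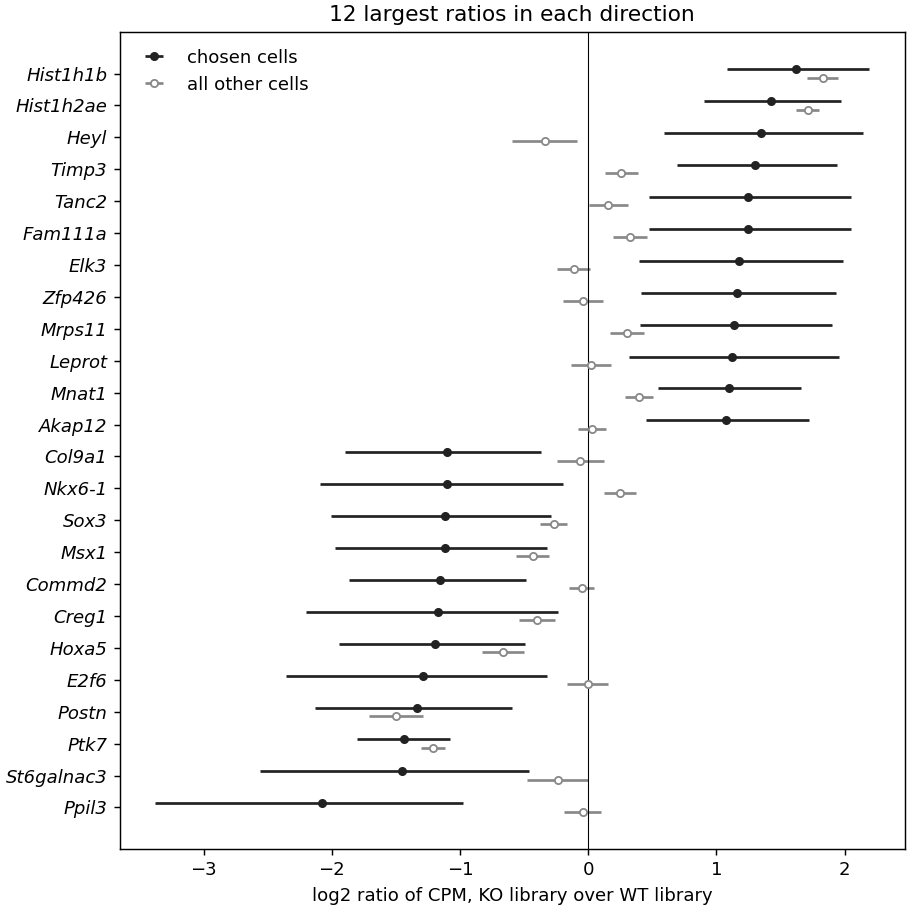
Log2 ratio of CPM, KO library over WT library, for the 12 genes with the largest ratio in each direction in the chosen cells (filled points) and for the same genes in all other cells (open points), with 95% counting intervals. The histone genes, Ptk7 and Postn lay on the same side of 0 in both, and Heyl and Nkx6-1 on opposite sides.

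Gene groups showed mostly small ratios. Sums are over all listed genes outside the rule, and counts and medians over those with at least 50 UMIs in the chosen cells. The mesenchymal transcription factors summed to 8173 CPM in WT and 8389 in KO, a log2 ratio of 0.04 (−0.02 to 0.09). None of the 35 tested was 2-fold apart, where 0.339% of all genes were higher and 0.566% lower. Within them Foxc1, a forkhead gene of head and somite mesenchyme, was at 155 and 234 CPM (log2 ratio 0.60, 0.24 to 0.95), and its paralogue Foxc2 at 91.5 and 153 CPM (0.74, 0.29 to 1.20). Other cells had 0.11 and 0.08. Foxc1 and Foxc2 were named after their values were seen. Of the 35 tested, the counting interval lay above 0 for 4 and below 0 for 1, where it did so for 6.67% and 6.22% of all genes. The median log2 ratio of the 35 was 0.00.

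Matrix genes summed to 7693 CPM in WT and 8270 in KO, a log2 ratio of 0.10 (0.05 to 0.16), where other cells had −0.12 (−0.13 to −0.11). Vcan, which encodes the proteoglycan versican, was at 386 and 554 CPM, a log2 ratio of 0.52 (0.30 to 0.75), against 0.08 in other cells. Col1a1 had a ratio of 0.00 (−0.28 to 0.27) in the chosen cells and −0.91 (−1.01 to −0.81) in other cells. This was not particular to the chosen cells, since somite cells showed no drop either (93.8 CPM for WT, 103 for KO). It also changed at the threshold of the rule. Among cells without barred genes, those with 2 rule genes fell from 436 CPM (WT) to 196 (KO), whereas those with 3 had 324 and 289. Of 36 matrix genes tested, 3 were at least 2-fold lower in KO and 0 higher, where 0.566% and 0.339% of all genes were. The counting interval lay above 0 for 5 of them and below 0 for 7, where it did so for 6.67% and 6.22% of all genes. Their median log2 ratio was 0.10.

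The 45 Wnt pathway genes listed outside the rule had a summed log2 ratio of −0.16 (−0.24 to −0.08), against −0.08 in other cells. Of the 22 tested, 2 were at least 2-fold lower in KO (0.566% of all genes were), Ptk7 and Sfrp2, and the median ratio was −0.03. Retinoid genes had a summed log2 ratio of 0.02 (−0.09 to 0.14). G2 and M phase genes had 0.12 (0.07 to 0.17), against 0.10 in other cells, and S phase genes 0.02 (−0.04 to 0.08). The 8 genes listed for histone H4K20 methylation and its partners had 0.02 (−0.13 to 0.17). Of the 7 tested, 0 were 2-fold apart, where 0.339% of all genes were higher and 0.566% lower, so this count says little.

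Hox genes summed to 695 CPM in WT and 482 in KO, a log2 ratio of −0.53 (−0.74 to −0.32), against −0.35 (−0.39 to −0.31) in other cells. Group 5 had the largest ratio among groups 1 to 5, at −1.05 (−1.56 to −0.55), against −0.62 in other cells. Hoxa5 was at 86.6 and 37.9 CPM, a log2 ratio of −1.19 (−1.94 to −0.50), against −0.66 in other cells. Group 3 had −0.09 (−0.49 to 0.29). The more posterior groups 8 and 9 were also lower in KO among other cells, with log2 ratios of −1.07 and −3.21, so the libraries differed in Hox genes outside the chosen cells too. How far back each dissection reached was not tested.

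**Figure D5:**
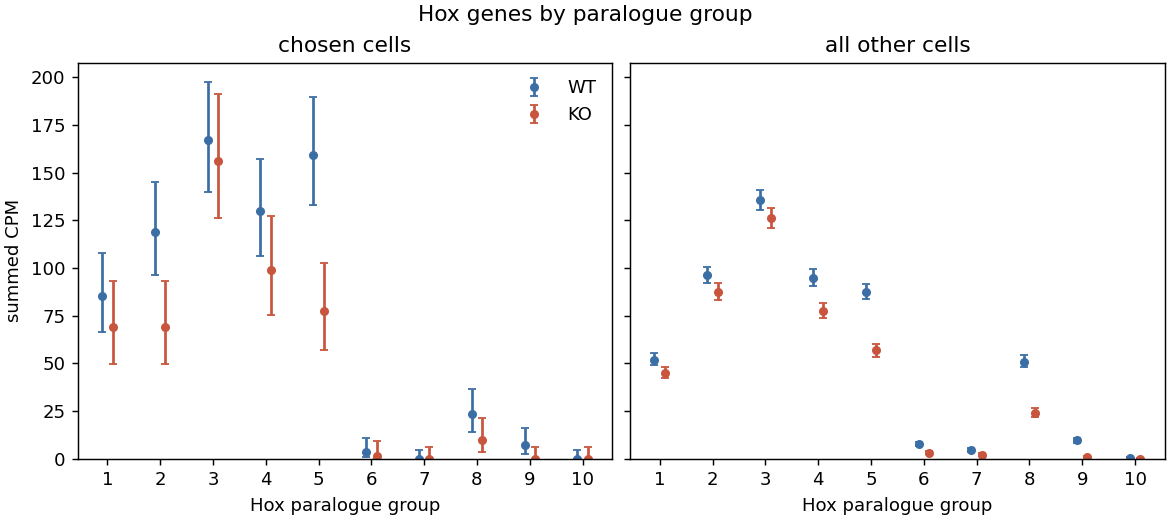
Summed CPM of Hox genes (vertical axis) by paralogue group (horizontal axis) in the chosen cells at left and all other cells at right, for WT and KO, with 95% Poisson intervals. Groups 1 to 5 were present in the chosen cells, and group 5 stood at 159.5 CPM in WT and 77.3 in KO.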

How the data were processed

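Per the labels and the study's methods, 3′ droplet libraries were processed with Cell Ranger (1.3.1 in the submitters' notes, build mm10) and Scanpy, and doublets were removed with a caller, whether before deposit not being said. The authors deposited a score per gene and cell, the square root of UMI counts scaled to 1641 per cell. UMI counts were recovered by squaring and dividing by the smallest nonzero square of the cell, and 100% of nonzero values were whole within 0.01. The libraries held 20781384 (WT) and 18936857 (KO) UMIs over 18131 genes, with a median of 1597 and 1703 per cell, and shared 26 barcodes. No doublet caller was run.

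CPM was computed from UMIs summed over cells, with exact Poisson intervals, exact conditional intervals for ratios and Clopper-Pearson intervals for shares (NumPy 2.4.6, SciPy 1.17.1). Genes needed 50 UMIs in the chosen cells. The ratio and its interval were tested on simulated data. With 1 library per genotype no count model could be fitted. Named genes were the 7 rule and 9 barred genes, the 25 leading genes, the 12 largest ratios in each direction, list examples, the 5 genes most above and below in each compared set, and Prdm6, Wnt1 and Bmp4. Members, lists and rules were chosen with earlier results of these data known. A result for 1 withheld item is not reported here.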

Additional observations from a re-analysis of the deposited data

Results flagged for a closer look

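Heyl had a log2 ratio of KO over WT of 1.35 in the chosen cells and −0.34 in all other cells, Nkx6-1 had −1.10 and 0.25, and the summed collagens and other matrix genes had 0.10 and −0.12. Hbb-bh1, an embryonic globin gene, had 0.31 and −0.75, but 1 KO cell held 118 of its 430 KO UMIs, and without that cell the value in the chosen cells was −0.15. Each was noted because its counting intervals lay on opposite sides of 0 in the chosen cells and in the other cells. The difference between the sets was not tested, since each genotype had 1 library. Of 5304 genes tested, 27 (0.509%) met the same criterion, and the 3 given here were among the leading genes, the lowest genes or those with the largest ratios.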

How the results depend on the processing

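The share of cells, KO over WT, kept its direction under the alternatives tried. With 4 or more of the 7 genes its log2 ratio was −0.94, and the median of 50 further thinning draws was −0.87, whereas the planned draw gave −0.45 and lay at the edge of their range, so a value from a single thinned set is not firm. Genes at least 2-fold apart between KO and WT numbered 1670 higher and 2313 lower with no minimum on UMIs. In that setting a gene with 1 UMI over both libraries was counted, so these numbers include ratios that rest on very few UMIs. In cells chosen after thinning, 6 genes were higher and 17 lower. Genes at least 2-fold higher in the chosen cells than in others numbered 38 with 1 CPM added, 8 with 4 or more genes and 12 after thinning. Those lower numbered 40 with no minimum, 7 with 4 or more genes and 8 after thinning. Fewer genes reached 50 UMIs in the smaller sets, 1782 after thinning and 1186 with 4 or more genes. Of 762 values of single genes and lists under alternatives, 690 stayed within the counting interval of the reported value, 64 moved and 8 turned direction. These were Mrps11 (−0.25), Foxd1 (0.20) and Hbb-bh1 (−1.14) with 4 or more genes, St6galnac3 (0.68), Foxd1 (0.038) and Hbb-bh1 (−0.74) after thinning, and Hbb-bh1 without the deepest 5% of cells (−0.146) and without the 1 cell with the most of its UMIs (−0.148). With the top cell of each library left out Hbb-bh1 had 0.03. Leaving out top cells, which was added after the data were seen, left every other one of the 62 genes within its counting interval. Leaving out cells with 2 UMIs of any of 8 foreign marker lists left 0 WT and 2 KO cells and gave no value, so the version with 4 lists was added after the data were seen. The cause of the moved values was not tested. The count models planned as alternatives were not run. No paired analysis was possible because each genotype had 1 library.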
